A study of Mus musculus with 6 samples.

Results

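The genes described here are the Rab GTPases and the genes of vesicle coats and sorting complexes: the numbered Rab genes, Sec13, Sec16, Sec22, Sec23, Sec24 and Sec31, the Arf GTPases, and the numbered Vps and Snx genes. The rule uses gene symbols, and it was set with earlier results of these data known. Of 21883 protein-coding genes in the RefSeq table, 144 fitted the rule: 59 Rab genes, 14 Sec genes, 6 Arf genes, 35 Vps genes and 30 sorting nexins. The deposited lists held 41527 regions on chromosomes 1 to 19, X and Y, and 309 of them had one of these genes as the nearest start site. Those 309 regions named 113 of the 144 genes (78.5%), against 59.1% of all protein-coding genes.

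The study mapped the chromatin binding of TERT, the catalytic subunit of telomerase, by CUT&Tag, in which an antibody guides a transposase to cut and tag nearby DNA. Neurons came from E15-18 C57BL/6 embryos, from both cortex and hippocampus, and were treated for 24 h with BIBR1532, a telomerase inhibitor, at 2 µM (3 samples) or with DMSO vehicle (3 samples, called untreated in another label field). The libraries of each condition were combined before regions were called, so each region has a single value from 2 pools and no replicate spread, and no test across samples could be made. The deposited lists were regions higher in the BIBR1532 pool (16153), regions higher in the vehicle pool (18562) and regions common to both (6812). The first condition was taken as BIBR1532 from the order of names in the lists, so the direction is likely but not stated outright. Depth per sample is unknown from these lists, and a region near a gene does not measure its expression.

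Membranes and proteins move between compartments of a cell in vesicles. Coat proteins shape the vesicles: COPII, built from the Sec23, Sec24, Sec13 and Sec31 proteins, buds them from the endoplasmic reticulum, and Arf GTPases recruit COPI and clathrin adaptors. Rab GTPases mark each compartment and recruit the tethers and motors that deliver vesicles to it. Vps proteins and sorting nexins form the complexes that sort cargo at endosomes, such as retromer, ESCRT and the HOPS tether. In neurons these routes carry synaptic vesicle precursors, receptors and growth factors between the cell body, axon and dendrites.

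The promoters below show where the deposited regions lay on the sequence. They are RefSeq promoter windows (GRCm38.p6) of 250 bases before to 50 after a start site, written 5′ to 3′ along the gene, with the bases covered by a condition-specific region in capitals. Sec24c, Rab5a and Vps36 had the highest authors' scores among members whose condition-specific promoter region overlapped such a window. Rab10, Vps26c and Rab43 were added after their values were seen, because each window held parts of both a shared and a condition-specific region. The windows are, in order, chr14:20674071-20674370 (plus strand), chr17:53478984-53479283 (plus), chr8:22192583-22192882 (plus), chr12:3309920-3310219 (minus), chr16:94526580-94526879 (minus) and chr6:87811730-87812029 (minus).
Sec24c: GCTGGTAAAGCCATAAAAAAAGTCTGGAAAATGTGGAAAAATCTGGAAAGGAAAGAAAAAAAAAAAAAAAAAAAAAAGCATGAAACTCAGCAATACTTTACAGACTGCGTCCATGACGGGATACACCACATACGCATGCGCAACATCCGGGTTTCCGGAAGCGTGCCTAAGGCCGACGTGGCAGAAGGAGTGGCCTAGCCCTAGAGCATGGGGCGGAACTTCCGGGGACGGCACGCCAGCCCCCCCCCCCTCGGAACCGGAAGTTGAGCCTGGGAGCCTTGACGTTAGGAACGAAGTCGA
Rab5a: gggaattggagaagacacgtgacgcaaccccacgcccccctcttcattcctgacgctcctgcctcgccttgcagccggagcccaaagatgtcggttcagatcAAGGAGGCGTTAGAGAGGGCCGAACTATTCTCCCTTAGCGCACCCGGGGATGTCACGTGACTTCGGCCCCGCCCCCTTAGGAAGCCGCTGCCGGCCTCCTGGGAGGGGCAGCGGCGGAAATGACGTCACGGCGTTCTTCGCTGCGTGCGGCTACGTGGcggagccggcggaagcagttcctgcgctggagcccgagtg
Vps36: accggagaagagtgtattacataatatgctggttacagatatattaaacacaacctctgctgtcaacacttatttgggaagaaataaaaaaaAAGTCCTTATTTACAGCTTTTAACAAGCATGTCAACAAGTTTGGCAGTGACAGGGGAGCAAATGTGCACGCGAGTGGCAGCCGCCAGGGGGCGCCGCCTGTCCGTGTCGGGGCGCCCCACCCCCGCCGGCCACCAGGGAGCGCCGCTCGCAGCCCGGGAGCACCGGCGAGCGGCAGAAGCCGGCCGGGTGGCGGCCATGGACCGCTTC
Rab10: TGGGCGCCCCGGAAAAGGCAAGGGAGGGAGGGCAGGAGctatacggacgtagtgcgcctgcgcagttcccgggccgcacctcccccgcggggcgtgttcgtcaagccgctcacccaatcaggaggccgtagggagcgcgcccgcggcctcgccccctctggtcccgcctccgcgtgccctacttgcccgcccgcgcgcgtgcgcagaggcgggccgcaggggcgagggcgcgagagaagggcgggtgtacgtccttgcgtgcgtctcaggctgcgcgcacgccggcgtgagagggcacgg
Vps26c: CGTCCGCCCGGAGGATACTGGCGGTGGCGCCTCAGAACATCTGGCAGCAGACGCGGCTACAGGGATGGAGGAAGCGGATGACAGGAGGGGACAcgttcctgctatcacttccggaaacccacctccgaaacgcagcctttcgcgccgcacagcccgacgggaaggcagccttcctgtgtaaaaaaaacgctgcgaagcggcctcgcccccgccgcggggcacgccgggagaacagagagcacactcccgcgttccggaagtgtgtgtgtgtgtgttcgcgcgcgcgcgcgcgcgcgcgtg
Rab43: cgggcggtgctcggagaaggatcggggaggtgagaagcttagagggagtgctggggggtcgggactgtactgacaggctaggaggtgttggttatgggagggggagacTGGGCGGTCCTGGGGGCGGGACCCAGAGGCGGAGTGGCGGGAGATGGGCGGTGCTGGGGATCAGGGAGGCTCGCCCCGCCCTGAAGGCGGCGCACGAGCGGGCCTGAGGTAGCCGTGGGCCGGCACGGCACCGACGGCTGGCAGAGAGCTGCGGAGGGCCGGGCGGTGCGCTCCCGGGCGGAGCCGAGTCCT
All 300 bases of the Sec24c window lay inside a vehicle region. In the Rab5a window, 98 bases at the 5′ end lay in a common region and 158 further 3′ lay in a vehicle region, with 4 bases between the regions. The BIBR1532 region of Vps36 covered 208 bases up to the 3′ end, and no common region reached that window. At Rab10, the first 38 bases were in a vehicle region and the next 233 in a common region that touched it. Vps26c had the same order, with 93 vehicle and 207 common bases. Rab43 had 70 bases of a common region at its 5′ end and 192 bases of a BIBR1532 region at its 3′ end.

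Many Rab genes had signal at their promoters that both conditions shared. A common region of class promoter-TSS, the annotation around a start site, was found at 41 of the 144 genes (28.5%, exact 95% binomial interval 21.3 to 36.6%), against 14.2% of all protein-coding genes. Rab genes held 25 of the 41. Thus 25 of 59 Rab genes (42.4%, interval 29.6 to 55.9%) had one, as did 7 of 30 sorting nexins (23.3%), 3 of 14 Sec genes (21.4%), 5 of 35 Vps genes (14.3%) and 1 of 6 Arf genes (16.7%). The intervals cover counting error over genes only, and none of these shares was tested.

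**Figure D1:**
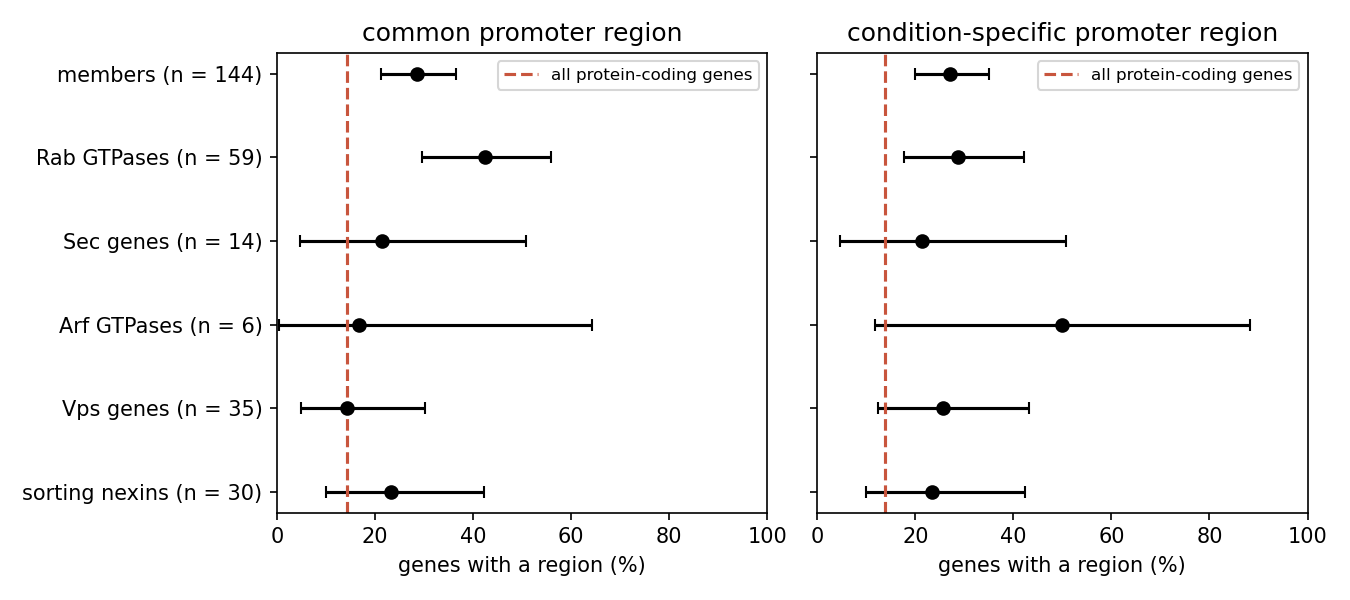
Share of genes with a common promoter region (left) and with a condition-specific promoter region (right), for all 144 members and for each family. Points are shares in percent, bars are exact 95% binomial intervals for counting error, and the dashed line is the share over all 21883 protein-coding genes (14.2% on the left, 13.9% on the right). Rab genes stand at 42.4% on the left and 28.8% on the right.

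Among Rab genes, counts of shared promoters differed by compartment, a difference that was not tested. The role groups used here were drawn up after the values had been seen and serve only to order the genes. Of 11 Rabs of the endoplasmic reticulum and Golgi, 8 had a common promoter region: Rab1a and Rab1b, which act in transport from the endoplasmic reticulum to the Golgi, Rab2b, Rab6b, Rab18, Rab30, Rab33a and Rab43. Early endosomes were represented by Rab5a, Rab5b, Rab5c and Rab21, that is 4 of 5 genes, with Rab22a the exception (a common region in its promoter window was assigned to its neighbour Ppp4r1l-ps). All 4 Rabs of polarised delivery to the plasma membrane, Rab8a, Rab8b, Rab10 and Rab13, had one. Recycling Rabs had 3 of 7 (Rab4a, Rab4b and Rab11a). Rab11b and Rab14 of that group had common regions in a 5' UTR, centred at 113 and 293 bp, which this class leaves out. For regulated secretion the count was 2 of 8, Rab3c and Rab3d, and none was assigned to the synaptic vesicle gene Rab3a. Late endosomal Rabs (Rab7, Rab7b, Rab9 and Rab9b) had 0 of 4. Rab2a, which like Rab2b acts between endoplasmic reticulum and Golgi, had 2 vehicle regions in introns and no common region. Outside these groups, Rab12, Rab39, Rab40b and Rab40c completed the 25.

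The shared promoter regions varied in width. At Rab1a the common region spanned 20201079 to 20201766 on chromosome 11 and its centre lay at 10 bp from the start. Rab5b had one of 788 bp centred at -116 bp, Rab40c one of 805 bp and Rab11a one of only 142 bp. Rab39 had 2 separate common promoter regions. Over the 43 common promoter regions of all members, widths ran from 142 to 813 bp with a median of 345 bp, against a median of 276 bp in the remaining common promoter regions, and centres lay between -630 and 186 bp from the start, negative values being upstream.

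Differences between Rab and coat genes were not tested, and the intervals of the Rab and Sec shares overlap. In the COPII coat, 2 of 11 genes had a common promoter region: Sec16a, which organises the exit sites where COPII forms and held the widest member region of this class (813 bp), and Sec23a, which had 2. Sec24a, a cargo-binding subunit, had a common region in its 5' UTR. Sec31a and Sec31b, which form the outer layer of the coat with Sec13, had no region in any list. Sec13 had regions in each list, none of them of the promoter class. Sec22c had 3 common regions, 1 of them of the promoter class. Of the Arf genes, Arf2 had a common promoter region and Arf4 a common region in its 5' UTR.

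The sorting complexes are small, and their counts were not compared by a test. The 2 genes counted as retriever, Vps26c and Vps35l, which serve in recycling of membrane proteins from endosomes, had a common promoter region. In the retromer core 1 of 4 genes had such a region, Vps26a. Vps29, which belongs to both complexes and is not among the 2 counted as retriever, had no region in any list. ESCRT and its ATPase had 2 of 9, Vps37c and Vps4a. Counts were 0 of 7 for the HOPS and CORVET tethers, 0 of 5 for GARP and EARP, and 0 of 4 for the VPS13 lipid transfer proteins. A common region did overlap the promoter window of Vps16, of HOPS and CORVET, but was assigned to its neighbour Pced1a. Over all protein-coding genes the share was 14.2%, and a count of 0 among so few genes does not set a group apart from it. Sorting nexins with a common promoter region were Snx3, Snx11, Snx14, Snx15, Snx21, Snx24 and Snx32. Snx27, which carries receptors back to the plasma membrane with retromer, had a 618 bp common region in exon 1 of 12, with 2 BIBR1532 regions and 1 vehicle region in the intron that follows.

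Counted by region, 43 of the 62 common regions of these genes (69.4%, interval 56.4 to 80.4%) were promoter regions, against 51.9% of all common regions. A further 8 lay in a 5' UTR, 7 in introns, 2 in exons, 1 in a 3' UTR and 1 between genes. The centre was within 1 kb of a start site in 88.7%, against 72.5% of the remaining common regions. None of the 62 carried a repeat annotation, which allows a share of up to 4.84% (3 counts of the total), and among the other common regions it was 4.46%. The 2 farthest from a start belonged to Rab11a and Rab38. Rab38 had an intergenic common region 100294 bp from its start, and the second common region assigned to Rab11a lay 115838 bp away in an intron of the neighbouring gene Megf11.

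**Figure D2:**
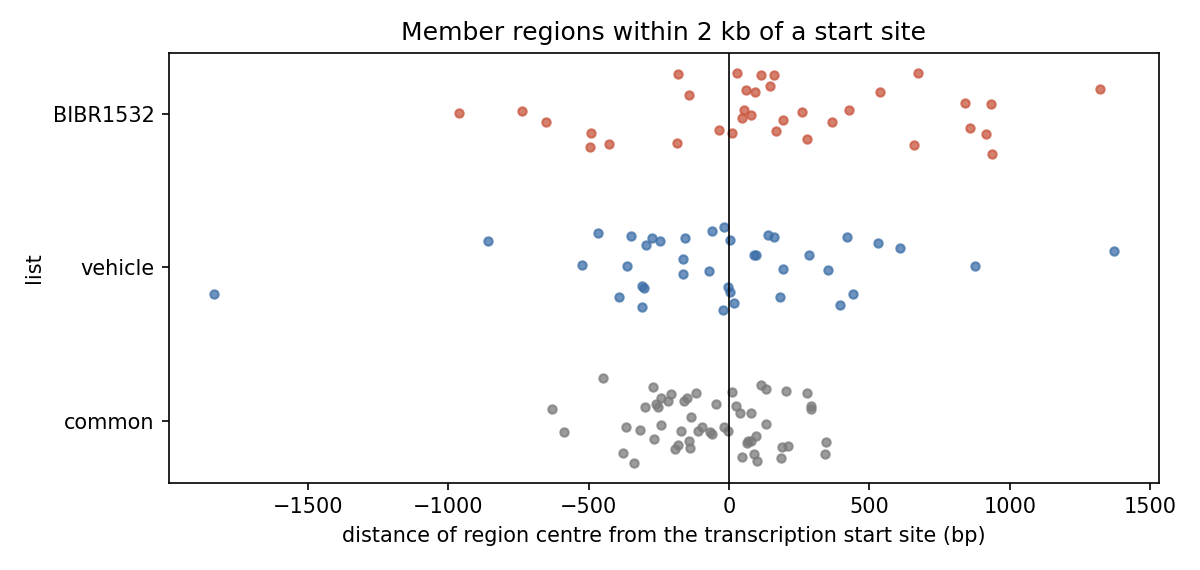
Distance in bp of each member region's centre from the assigned transcription start site, for regions within 2 kb of it. Rows are the BIBR1532, vehicle and common lists, each point is a region, and vertical scatter within a row carries no value. Common regions gather at the start, with 55 of 62 within 1 kb, against 34 of 109 BIBR1532 and 37 of 138 vehicle regions.

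The promoters of these genes were rich in G+C, and across all genes shared signal was least frequent at genes whose windows were poor in G+C. RefSeq promoter windows were matched for 110 of the 144 members, in 138 entries, and for 17491 protein-coding genes in all. Median G+C was 62.5% over the members' windows and 56.3% over all. The median ratio of observed to expected CpG was 0.789, against 0.567. A common region overlapped a window of 39 of 110 members (35.5%, interval 26.6 to 45.1%), whatever gene it had been assigned to, and of 18.6% of all genes. Genes were then binned by the G+C of their richest window, and an overlap of any of their windows was counted. In the bin of 60 to 70% G+C it was 19 of 43 members (44.2%) and 31.1% of all genes. Below 50% G+C the shares were 14.3% (1 of 7) and 2.91%. In the bin of 50 to 60% G+C they were 27.6% and 17.4%, and at 70% or more they were 35.5% and 27.8%. The part that promoter composition has in the members' share was not tested.

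**Figure D3:**
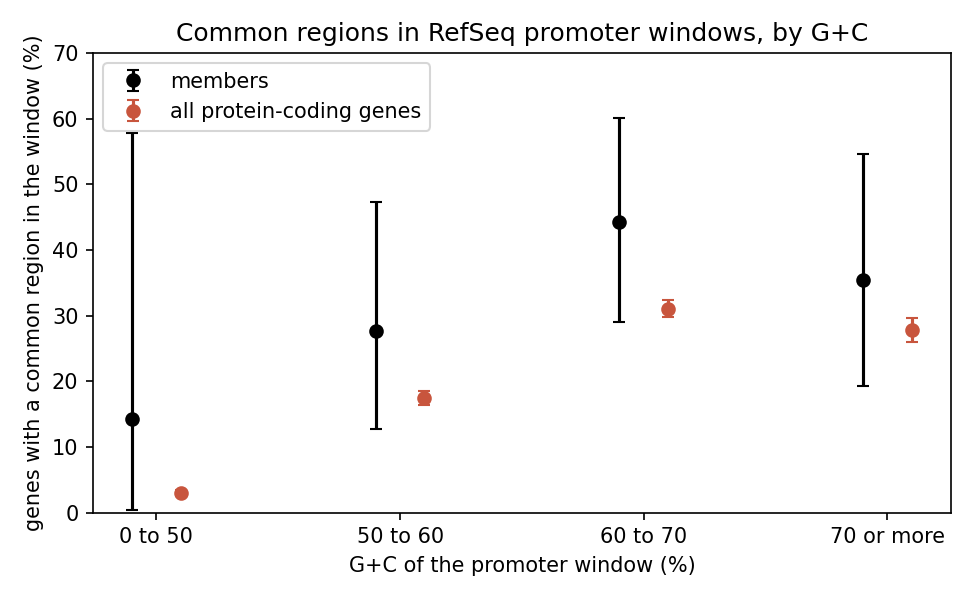
Share of genes with any RefSeq promoter window overlapped by a common region (percent), by the G+C content of each gene's richest window. The overlapped window need not be the richest one. Black points are members and red points are all protein-coding genes, with exact 95% binomial intervals for counting error. In the bin of 60 to 70% G+C the shares are 44.2% for members and 31.1% for all genes.

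Short motifs were counted in the same windows on both strands. The GC box GGGCGG occurred in 93 of 138 member windows (67.4%) and in 46.2% of all windows, and among windows with a common region in 81.0% of member windows and 74.9% of all. The sequence CCAAT was found in 37.0% of member and 38.2% of all windows. The E-box CACGTG was present in 11.6%, against 7.84%. TGACGTCA, the cAMP response element, was in 1.45% and 2.23%. The telomeric repeat unit TTAGGG was in 9.42% of member windows and 10.5% of all windows. Among windows with a common region it was in 1 of 42 member windows (2.38%, interval 0.06 to 12.6%) and 10.3% of all. That interval includes the share over all such windows, and no motif share was tested. Motifs were searched as written, so neighbouring matches may share end letters. In the printed Rab43 window GGGCGG occurred 7 times, and the Rab5a window held CACGTG at 2 places, with TGACGTCA, CCAAT and GGGCGG at 1 each. No TTAGGG was found in the 6 printed windows on either strand. These matches describe letters only.

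Between the conditions, the regions of these genes were divided much as all regions were. Of 247 condition-specific regions assigned to members, 109 were in the BIBR1532 list and 138 in the vehicle list, so BIBR1532 made up 44.1% (interval 37.8 to 50.6%), against 46.5% of all condition-specific regions. If the lists run the other way, these shares become 55.9% and 53.5%. The BIBR1532 list named 66 members (45.8%, against 34.5% of protein-coding genes) and the vehicle list named 79 (54.9%, against 37.4%). Both lists named 43 members (29.9%), against 20% of protein-coding genes. These 43 are 65.2% of the members in the BIBR1532 list and 54.4% of those in the vehicle list, against 58.1% and 53.5% for all protein-coding genes in each list. More BIBR1532 than vehicle regions were assigned to 33 members (22.9%, against 19.8% of protein-coding genes), more vehicle regions to 48 (33.3%, against 24.1%) and equal numbers to 21 (14.6%, against 7.96%). The median gene length was 26.4 kb for members and 17.2 kb for all protein-coding genes. The part of gene length in these shares was not tested.

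By family, the shares had wide intervals. BIBR1532 regions made up 34 of 85 condition-specific regions of Rab genes (40.0%, interval 29.5 to 51.2%), 32 of 74 of sorting nexins (43.2%), 19 of 39 of Sec genes (48.7%), 22 of 42 of Vps genes (52.4%) and 2 of 7 of Arf genes. Each of these intervals includes the share over all regions. Differences between the families were not tested.

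Many regions of each list shared its most frequent score, called the repeated score here, 6.34 in the BIBR1532 list and 5.19 in the vehicle list. Other scores also recurred among members, such as 1.29 in the BIBR1532 list and 7.35 in the vehicle list, and are not counted as the repeated score. The score is the authors' own value for the difference between the pools at a region. Among members, 38 of 109 BIBR1532 regions (34.9%) and 59 of 138 vehicle regions (42.8%) had the repeated score. In the rest of the lists it was 46.9% and 50.2%. Without those regions the BIBR1532 share was 47.3% for members and 48.2% for the rest, and 24 rather than 43 members were named by both lists (16.7%, against 9.97% of protein-coding genes).

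**Figure D4:**
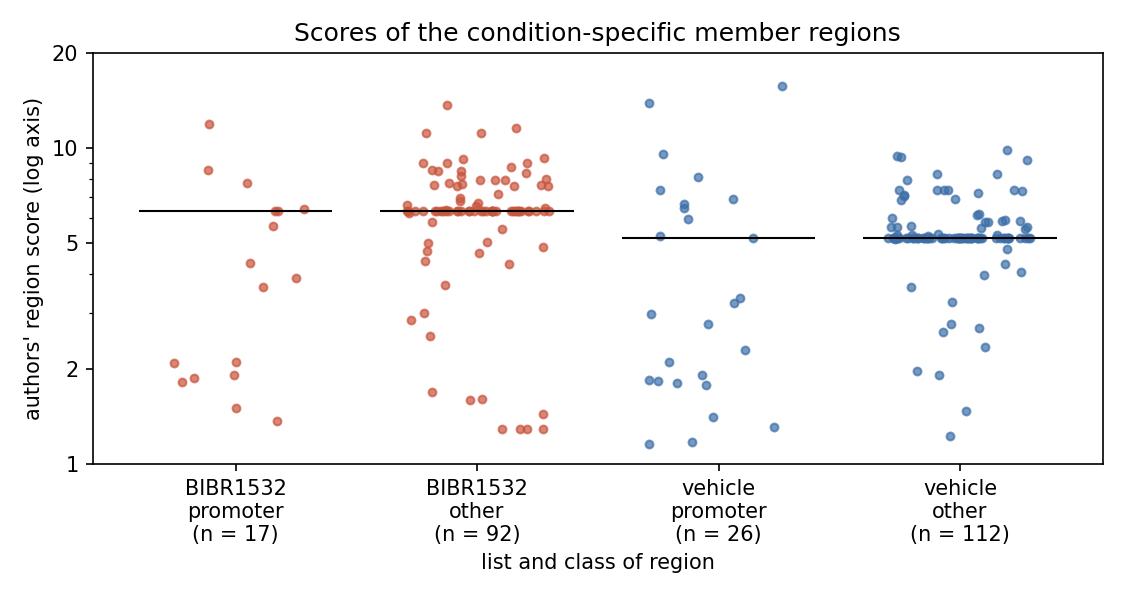
Authors' score of each condition-specific member region on a log axis, by list (BIBR1532 in red, vehicle in blue) and by class (promoter regions against all other classes). Black lines mark the repeated score of each list, 6.34 and 5.19, and horizontal scatter carries no value. Promoter regions lie mostly under the line, with medians of 3.88 in the BIBR1532 and 3.12 in the vehicle list.

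Condition-specific regions at promoters were found at 39 members (27.1%), against 13.9% of protein-coding genes. There were 17 BIBR1532 regions at 17 genes (11.8%, against 6.89%) and 26 vehicle regions at 24 genes (16.7%, against 7.37%). Only Arf3, a brain-enriched Arf GTPase, and Rab11b, a recycling Rab, had promoter regions in both lists, that is 1.39% of members and 0.315% of protein-coding genes. Arf3 had a BIBR1532 region of score 1.37 centred at 62 bp and a vehicle region of score 3.34 centred at -247 bp, 132 bp apart. Together they were 43 of 247 condition-specific regions of members (17.4%), against 10.2% of all such regions, and 17 of the 43 (39.5%) were BIBR1532 regions, against 48.5%. Promoter regions were 15.6% of the members' BIBR1532 and 18.8% of their vehicle regions, against 10.6% and 9.70% in the rest of the lists.

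In the BIBR1532 list, the promoter regions of highest score belonged to Rab7b (11.9, centred at -961 bp), Rab11b (8.54), the ESCRT-II gene Vps36 (7.77, chr8:22192675-22192924) and Vps33b (6.42), an endosomal sorting gene. Rab3b, a Rab of regulated secretion, and the COPII gene Sec24d were at the repeated score. Below it stood Rab18 (5.68), Snx2 (4.32), Snx29 (3.88), Snx33 (3.64), Sec23b (2.105), Rab6b (2.09), Rab43 (1.92), Vps26a (1.88), Vps18 (1.82), Rab21 (1.502) and Arf3.

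In the vehicle list, Sec24c stood highest with 15.7, at chr14:20674000-20674524, in a promoter with no common region within 30 kb. It encodes a COPII subunit that selects cargo. Rab36 followed with 13.9, centred at -310 bp, and Vps9d1 with 9.60, in a region that also lay within the gene Zfp276. The early endosome gene Rab5a had a vehicle promoter region of score 8.12, and 4 bp separated it from a common region. Vps13a (7.35), Snx6 (6.89), Vps26c (6.67), Snx10 (6.46), Rab13 (5.96), Snx1 (5.28), Rab9 (5.19), Arf6 (3.24), Vps37a (2.99), Rab10 (2.78), Rab11b (2.30), Rab14 (2.11), Rab28 (1.91 and 1.16), Arf1 (1.83), Vps16 (1.802), Rab8a (1.78), Rab5c (1.41), Snx11 (1.31) and Rab8b (1.17) completed this list, with Arf3. All 4 Rabs of polarised delivery were among them, and no BIBR1532 region of any class was assigned to those 4. Over all protein-coding genes, 7.37% had a vehicle promoter region and 34.5% were named by the BIBR1532 list. The vehicle region of Rab13 lay 6268 bp from its common promoter region. A BIBR1532 region assigned to another gene lay 325 bp from that common region. The grouping of these 4 Rabs was made after the values were seen and has no test.

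Some condition-specific promoter regions adjoined a shared one. Of the 43 condition-specific promoter regions, 8 touched or overlapped a common region (18.6%) and 15 lay within 200 bp of one (34.9%). The rest of the condition-specific promoter regions gave 15.7% and 30.7%, so this arrangement was close to the background. Those in contact were Rab18 and Rab21 in the BIBR1532 list and Rab5c, Rab8b, Rab10, Rab11b, Snx11 and Vps26c in the vehicle list. At Rab5c the vehicle region overlapped the common region by 79 bp and at Rab11b by 25 bp. Both a common and a condition-specific promoter region were found at 13 members (9.03%), against 3.77% of protein-coding genes, and 10 of the 13 were Rab genes.

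Away from promoters, 53 BIBR1532 and 70 vehicle regions were intronic, and 30 and 28 were intergenic. Intronic regions were 48.6% of the members' BIBR1532 and 50.7% of their vehicle regions, against 44.2% and 43.6% in the rest, and intergenic ones 27.5% and 20.3%, against 38.0% and 39.3%. The members with the most condition-specific regions were Sec16b (7 BIBR1532 and 4 vehicle), a relative of Sec16a, Rab11a (5 and 4), Rab28 (2 and 7), Snx10 (4 and 3), Snx19 (4 and 3), Snx29 (3 and 3), Snx7 (2 and 4), Snx9 (1 and 5), Sec23a (1 and 4) and Snx20 (2 and 3). With 3 or more in one list and none in the other stood Snx13, with 3 BIBR1532 regions, and Snx1 and Snx25, each with 3 vehicle regions. Snx1 is a membrane-bending partner of retromer. In Snx1, Snx13 and Snx25 alike, 2 of the 3 regions had the repeated score, and 1 region of Snx13 was intergenic, at -12110 bp. The share of all genes that meet this rule was not counted.

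**Figure D5:**
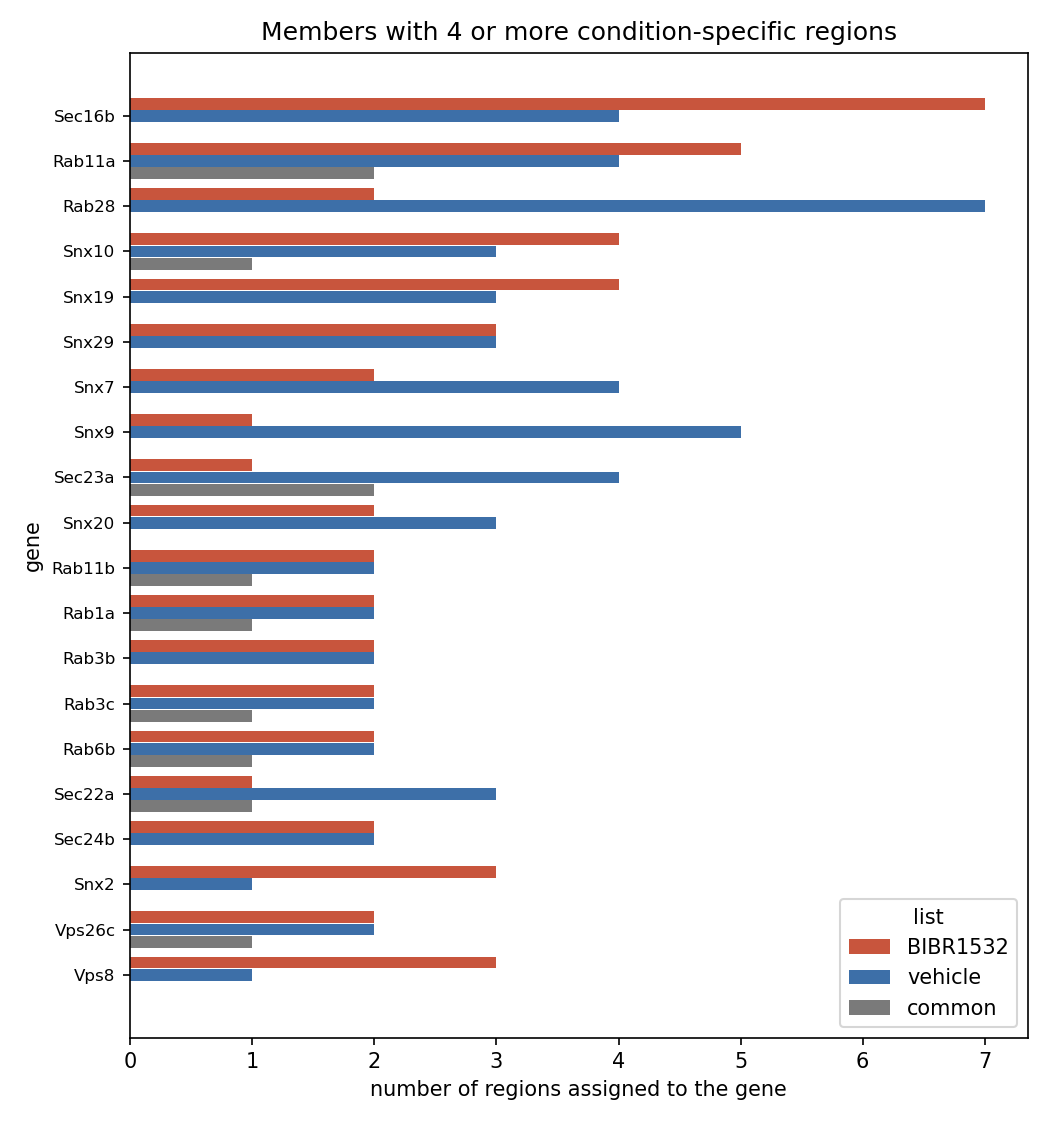
Number of regions assigned to each member with 4 or more condition-specific regions, by list (BIBR1532 in red, vehicle in blue, common in grey). Sec16b leads with 7 BIBR1532 and 4 vehicle regions, and Rab28 has 2 BIBR1532 and 7 vehicle regions.

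Assignment by nearest start site gave some genes regions that lie elsewhere. Of the BIBR1532 regions of members, 60 were centred in the RefSeq gene itself, 8 within 1 kb of it, 10 in another protein-coding gene and 31 outside protein-coding genes. For the vehicle regions these counts were 79, 19, 12 and 28. A region in or within 1 kb of its own gene was counted there even where it also lay in another gene. Vehicle promoter regions of this kind were those of Vps9d1 (in Zfp276), Vps16 (in Pced1a) and Vps37a (in Cnot7). All 5 BIBR1532 regions of Rab11a, which drives recycling of receptors, lay outside the gene, 4 of them in Megf11, and 2 of its 4 vehicle regions were in the gene. Rab28 had 0 BIBR1532 and 5 vehicle regions in or beside the gene, 2 of them at the promoter, and the others were over 500 kb away. Sec23a had 0 and 4, and of its 4 vehicle regions 3 were at the repeated score. Sec16b had 2 and 2. Counting only regions in or within 1 kb of the gene, 68 BIBR1532 and 98 vehicle regions were left, of which BIBR1532 made up 41.0% (interval 33.4 to 48.9%). The same share was not counted for other genes.

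By score, the strongest BIBR1532 regions of any class were an intergenic region at -269371 bp from Snx16 (13.7), the Rab7b promoter region, an LTR element at -5542 bp from Snx9 (11.6), intron 7 of 14 of Snx2 (11.2) and an intergenic region near Snx10 (11.1). In the vehicle list they were the Sec24c and Rab36 promoter regions, exon 3 of 14 of Rab44 (9.88), the Vps9d1 promoter region and an intergenic region 66222 bp from Sec16b (9.43). The common regions of highest score were those of Vps35l (0.614), Snx4 (0.496), Vps26c (0.433), Rab11b (0.420) and Snx27 (0.411). Because the score is a value for the difference between the pools, it does not rank common regions by the strength of shared signal. For Vps35, the retromer subunit linked to Parkinson's disease, there was 1 BIBR1532 region in intron 1 of 16, with a score of 8.95. Rab27b, a secretory Rab, had 1 BIBR1532 region in intron 1 of 6, 166 bp from the start. Sec13 had 2 BIBR1532, 1 vehicle and 1 common region, each more than 40 kb from its start. Rab1a had 2, 2 and 1.

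No region was assigned to 31 of the 144 members: 15 Rab genes, 10 Vps genes, 3 sorting nexins, 2 Sec genes and 1 Arf gene. The Rab genes were Rab3a, Rab6a, Rab7, Rab15, Rab20, Rab23, Rab25, Rab26, Rab29, Rab32, Rab33b, Rab34, Rab35, Rab37 and Rab42. The others were Arf5, Sec31a, Sec31b, Snx5, Snx17, Snx18, Vps13b, Vps25, Vps26b, Vps28, Vps29, Vps33a, Vps37d, Vps39, Vps4b and Vps51. Some promoter windows of such genes nonetheless held a region that was assigned to a neighbour. A BIBR1532 region of score 3.55, at 100607577 to 100608162 on chromosome 7, overlapped the window of Rab6a and was assigned to Mrpl48. Common regions assigned to Eif2b4 and Ncapd3 overlapped the windows of Snx17 and Vps26b.

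The symbol rule also took in genes of other function. Vps72 encodes a subunit of chromatin remodelling complexes and not a sorting protein. It had 1 BIBR1532 region in exon 1 of 6 (score 8.73) and 1 vehicle region.

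Other genes of the same routes had common promoter regions in 37 of 155 cases (23.9%), against the 14.2% of all protein-coding genes. The COPI coat had 2 of 9 (Copb1 and Copz1), COPII initiation and cargo genes 4 of 10 (such as Sar1a, the GTPase that starts COPII assembly), and clathrin and its adaptors 8 of 30, among them the clathrin heavy chain gene Cltc. Rab regulators and effectors had 8 of 38, including Eea1, a tether that binds active Rab5, and Rabggta, a subunit of the enzyme that attaches lipid to Rabs. Arf regulators had 6 of 23, ESCRT genes without a Vps name 5 of 18 and tethers 4 of 27. These lists had 118 BIBR1532 and 132 vehicle regions in all.

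The labelled cell type cannot be checked from regions, which do not measure expression. Of 8 neuronal marker genes, Snap25 and Syt1 had a common promoter region, against 0 of 6 astrocyte, 0 of 6 oligodendrocyte lineage, 0 of 5 microglial and 0 of 4 endothelial markers. Over all protein-coding genes the share was 14.2%, and a count of 0 among so few genes does not set a group apart from it. Vehicle promoter regions were found at 2 neuronal, 1 astrocyte and 1 oligodendrocyte lineage marker, and a BIBR1532 promoter region at 1 neuronal marker. Over all protein-coding genes these shares were 7.37% and 6.89%. Any list named 7 of the 8 neuronal, 5 of the 6 astrocyte and 5 of the 6 oligodendrocyte lineage markers. It also named 4 of the 5 microglial and 1 of the 4 endothelial markers, against 59.1% of all protein-coding genes.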

How the data were processed

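TERT CUT&Tag was measured in 3 BIBR1532 and 3 vehicle samples, with groups taken from titles. Tools in the submitters' processing notes are MACS2 2.1.2, Picard, Bowtie2 and CASAVA 1.8, and the build is mm10. Per the file headers, the regions came from a folder named bdgdiff, the MACS2 step that compares 2 conditions, and annotatePeaks.pl gave each its class, nearest start site and distance on mm10. Each deposited score is the authors' value for a region. Scaling between the pools is not stated in these sources. The BIBR1532 and vehicle lists were decoded from a 7-bit text encoding.

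Members were RefSeq protein-coding genes whose symbol fits the rule, and genes of the lists were matched by gene ID. Shares carry exact (Clopper-Pearson) intervals at 95% for counting error. No test across samples was possible, since the libraries of each condition were pooled. The counting was tested on simulated lists. Members and gene lists were chosen with earlier results of these data known. Named genes are those with a promoter region in any list, the 10 with most condition-specific regions, the 5 regions of highest score per list, those with 3 or more regions in a single condition-specific list, and a fixed set given whatever its values. Alternatives tried were a width of 500 bp, minimum scores of 2 and 3, distances of 1 and 10 kb, other units and all contigs. Assignment to the own gene and overlap of RefSeq windows were added after seeing the data. Software was matplotlib 3.10.9, scipy 1.17.1, numpy 2.4.6, pandas 2.3.3 and Python 3.11.15.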

Additional observations from a re-analysis of the deposited data

How the results depend on the processing

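No paired analysis was possible because the libraries of each condition were pooled before the lists were made, and leaving out a replicate was impossible for the same reason. Of 48 alternatives over 6 results, 35 stayed within the interval of a share or within 1.5 times a count, and 13 moved. The 41 members with a common promoter region ranged from 39 to 52, except at a width of at least 500 bp. The 39 were of 110 with a RefSeq window (35.5%, against 18.6% of all genes with one). The 52 were counted with a centre within 1 kb as the promoter (36.1% of members, against 19.2% of protein-coding genes). At a width of at least 500 bp, 10 remained (6.94% of members, against 3.01% of protein-coding genes). At that width the BIBR1532 share was 32.3% of 31 regions (interval 16.7 to 51.4%), and promoters were 6.45% of condition-specific regions. The BIBR1532 list then named 10 members (6.94%, below the 7.98% of protein-coding genes). The vehicle list named 18 (12.5%, against 8.48%) and both lists 4 (2.78%, against 1.96%). In the other settings the BIBR1532 share lay between 41.0% and 47.3%. Within 10 kb of the start site the vehicle list named 49 members (34.0%, against 20.3%) and both lists 14 (9.72%, against 5.40%), and without the regions at the repeated score both lists named 24 (16.7%, against 9.97%). The promoter share, 17.4% of condition-specific regions, was 11.0% at a score of at least 3, 26.7% without the repeated score, 39.8% within 10 kb and 28.7% with a centre within 1 kb as the promoter. The last of these redefines the class over the same regions, and the others keep fewer of them. With that class, the rest of the lists had 17.5% of BIBR1532 and 15.8% of vehicle regions. In the other settings the promoter share over all regions was not counted, so the unfiltered 10.2% is not their background. Of the alternatives, the BIBR1532 share in the rest was counted only without the repeated score (48.2%). Other causes were not tested. Without per-sample depth, no region has an error of its own.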
